A study of Rattus norvegicus with 10 samples.

Results

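The dual-specificity MAP kinase phosphatases are enzymes that remove phosphate from both the threonine and the tyrosine of an active MAP kinase. Their members here were the 9 genes Dusp1, Dusp2, Dusp4, Dusp5, Dusp6, Dusp7, Dusp8, Dusp10 and Dusp16, taken as every probe set whose gene symbol equalled a member's. That gave 12 of the 43686 probe sets, for 9 of 19091 distinct symbols. Dusp1, Dusp8 and Dusp16 had 2 probe sets each, called brighter and dimmer by their mean over all arrays, and the other 6 genes had 1.

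The values came from the lateral gastrocnemius, a calf muscle of mixed fibre type. Male Sprague-Dawley rats gave 5 aged and 5 young muscles, each with an array of its own. Aged rats carry the label of 24 months and were killed at 28, whereas for young rats the label is 6 months and the age at death 7. All animals were kept on the same light cycle with free food and water and were euthanised with CO2, and the left muscle was snap-frozen. The study took such rats to model sarcopenia, in which muscle wastes with age, and asked which transcripts set them apart from young animals.

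MAP kinases pass signals from growth factors, stress and muscle contraction to the nucleus, through the ERK, JNK and p38 branches. The phosphatases switch them off, and many are themselves induced by the kinases they act on, which makes them feedback inhibitors. They fall into a nuclear group that stimuli induce within minutes to hours (Dusp1, Dusp2, Dusp4 and Dusp5), a cytoplasmic group directed at ERK (Dusp6 and Dusp7), and a group directed at JNK and p38 (Dusp8, Dusp10 and Dusp16).

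The promoters of the members that passed the test, Dusp1 and Dusp8, are shown with that of Dusp5, a nuclear member that did not pass, to show where the motifs of signal-responsive genes searched for lie in them. They are the RefSeq sequences of the rat build GRCr8, from 250 bases before the transcription start to 50 bases from it, and capitals mark the motifs found. Dusp1 is at chr10:17184603-17184902 on the plus strand, Dusp5 at chr1:262543524-262543823 on the plus strand and Dusp8 at chr1:206612392-206612691 on the minus strand.
Dusp1: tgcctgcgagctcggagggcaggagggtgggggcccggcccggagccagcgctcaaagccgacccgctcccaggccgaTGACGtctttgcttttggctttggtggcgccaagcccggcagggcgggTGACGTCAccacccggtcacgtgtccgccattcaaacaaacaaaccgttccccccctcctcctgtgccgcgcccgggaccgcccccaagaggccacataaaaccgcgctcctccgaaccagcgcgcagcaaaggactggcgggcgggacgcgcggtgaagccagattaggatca
Dusp5: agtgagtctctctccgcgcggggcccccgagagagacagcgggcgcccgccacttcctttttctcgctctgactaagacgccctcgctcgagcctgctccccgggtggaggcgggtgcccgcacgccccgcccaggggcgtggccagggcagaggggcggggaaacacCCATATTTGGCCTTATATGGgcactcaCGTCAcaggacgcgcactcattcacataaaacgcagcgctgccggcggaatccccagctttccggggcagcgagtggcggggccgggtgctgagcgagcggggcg
Dusp8: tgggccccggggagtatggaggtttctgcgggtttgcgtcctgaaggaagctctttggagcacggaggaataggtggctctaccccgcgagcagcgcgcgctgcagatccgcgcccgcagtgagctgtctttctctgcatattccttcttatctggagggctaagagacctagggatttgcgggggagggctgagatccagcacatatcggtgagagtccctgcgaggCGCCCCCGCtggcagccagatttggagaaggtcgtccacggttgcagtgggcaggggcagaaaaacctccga

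In the Dusp1 window the full cAMP response element TGACGTCA began 124 bases before the start, and the shorter form TGACG, not overlapping it, began 172 bases before. The Dusp5 window held 2 serum response CArG boxes next to each other, CCATATTTGG from 82 bases and CCTTATATGG from 72 bases before the start, and TGACG on the opposite strand from 55 bases before. The Dusp8 window held the letters CGCCCCCGC, a match on the opposite strand to the EGR motif GCGGGGGCG, from 22 bases before the start. Both strands were searched in 8 member promoters, the entry for Dusp4 not being in the table used here. TGACGTCA was in the Dusp1 window and in 1.83% of all 33469 promoters of this length, and the CArG box was in the Dusp5 window and in 1.64%. TGACG, which also lies within TGACGTCA, was in 4 of the 8 windows (Dusp1, Dusp2, Dusp5 and Dusp16) and in 21.2% of all. The EGR motif, as GCGGGGGCG or GCGTGGGCG, was in 3 windows (Dusp2, Dusp8 and Dusp16) and in 3.20% of all. The AP-1 motif TGAGTCA or TGACTCA (4.63% of all promoters) and TATAAA (14.2% of all) were in 0 of the 8 windows. TGACGTCA was in 3.33% of the promoters of genes called lower, 3.07% of those called higher and 2.53% of those measured. Among promoters of measured genes TGACG was in 26.5% and the EGR motif in 5.01%, above their shares of all promoters. The CArG box was in 1.32% of them, the AP-1 motif in 3.88% and TATAAA in 11.3%, below those shares. A match describes letters in the window and does not show that a factor binds there.

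Values are intensities on a linear scale, as deposited, and each test was limma's moderated test on log2 intensity with the Benjamini-Hochberg adjustment over all 43686 probe sets. A gene or probe set is called higher or lower where its adjusted p was under 0.05, and a gene with several probe sets is represented by its brightest one. The median intensity of an array was 13.46 to 13.74 in aged and 13.79 to 13.99 in young animals. Over all probe sets 15% were called, 8.09% higher and 6.87% lower in aged muscle, a balance that was 3057 higher and 3334 lower with quantile normalization, 3973 and 2330 with median centring, and 3535 and 3001 as deposited. Aged replicate 1 stood apart, since its log2 intensities gave a mean r of 0.990 across probe sets both with the other aged arrays and with the young ones. The columns of aged replicates 4 and 5 were named as replacements in a deposited table, with no reason given in the sources used here. Results of the phosphatases that turn on these arrays are given with and without them, as are the larger changes in the gene lists. Since the samples are whole muscle, fewer cells of a type and less RNA per cell cannot be told apart in any value.

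Of the 9 phosphatase genes, 2 fell in aged muscle, Dusp1 and Dusp8, and the other 7 did not pass. Over all 19026 genes tested by their brightest probe set, 22.5% were called, 8.7% lower and 13.8% higher. By limma 0 of the 9 were called higher, and 1, Dusp2, was above the young mean at an unadjusted p under 0.05. In all, 4 genes (Dusp1, Dusp2, Dusp7 and Dusp8) had an unadjusted p under that threshold. By probe set, 3 of 12 were called lower, against 6.87% of all probe sets. Both genes that fell did so by at least 1.5-fold, as 2.59% of all genes did. Aged and young animals did not overlap in these 2 genes and 3 probe sets, where 6.68% of genes and 5.57% of probe sets had all aged animals below all young ones. The log2 mean of the aged group lay below that of the young group in 7 of 9 genes, and the median log2 fold change over the 9 was -0.22, against -0.01 over all 19026 genes.

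**Figure D1:**
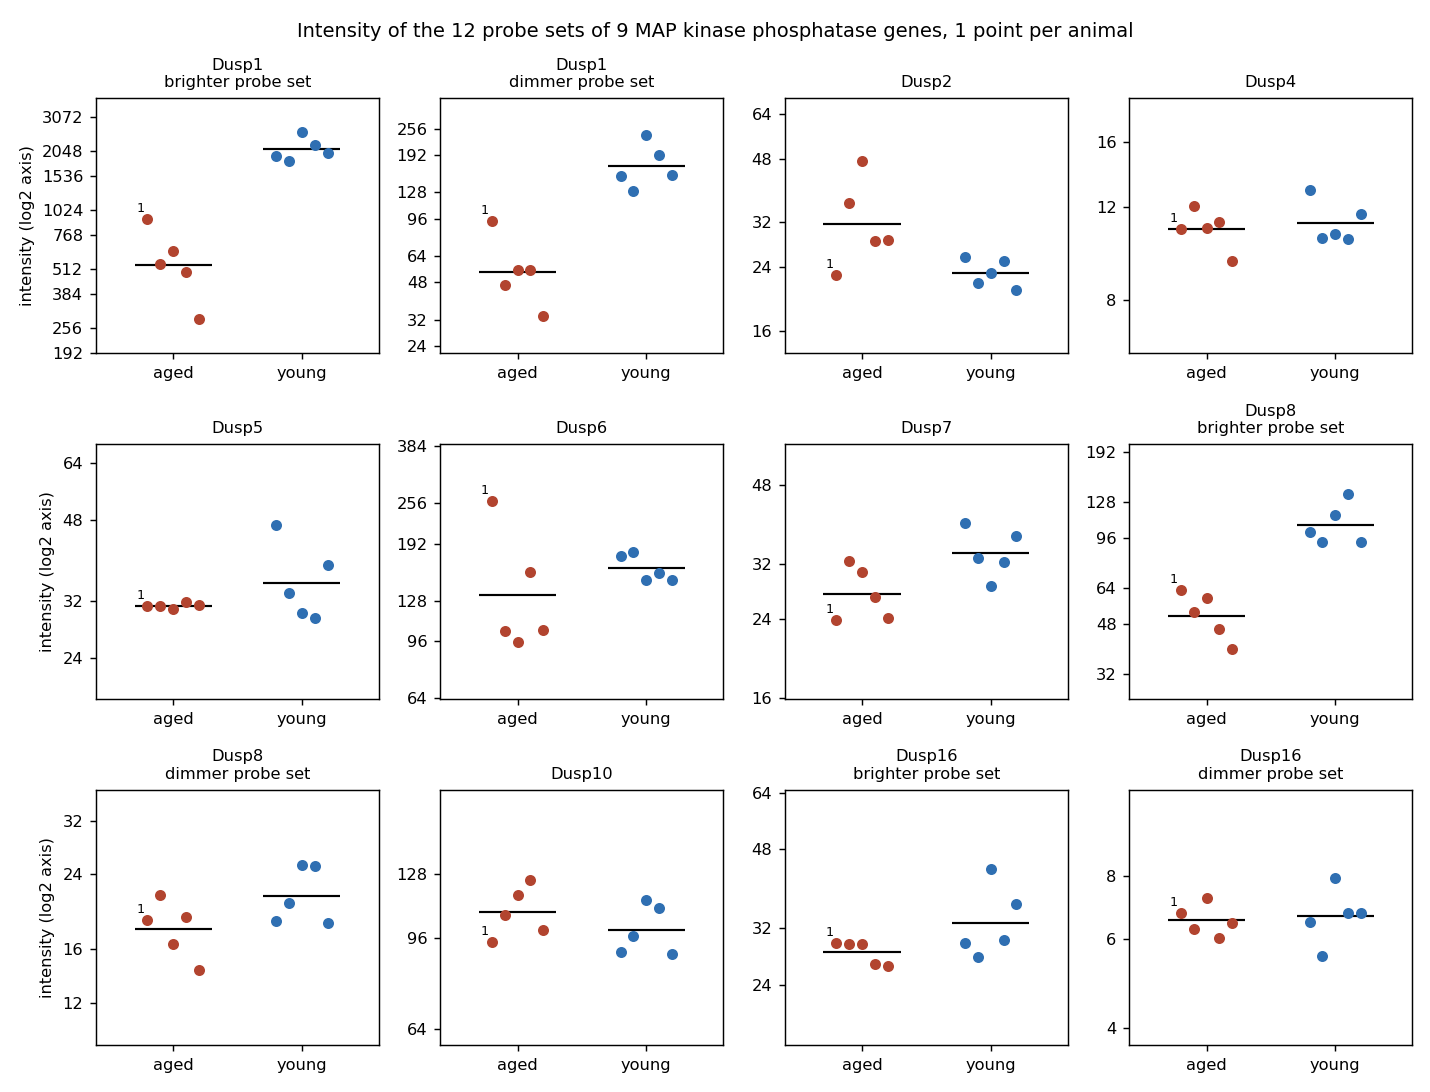
Intensity on log2 axes, with a range of its own in each panel, for the 12 probe sets of the 9 genes, aged animals left and young animals right. Each point is an animal, the line is the mean of log2 intensity (n = 5 per group) and aged replicate 1 is numbered. The aged and young points are apart in 3 panels, both of Dusp1 and the brighter one of Dusp8.

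Dusp1, the phosphatase that stress, growth factors and glucocorticoids induce as an immediate-early gene and that acts on p38, JNK and ERK in the nucleus, was the member with the largest difference. Its brighter probe set read 923.86, 547.60, 630.92, 498.25 and 286.29 in aged replicates 1 to 5, against 1940.58, 1825.51, 2550.67, 2214.53 and 2012.75 in young replicates 1 to 5. The highest aged value, in replicate 1, was thus below the lowest young one. Dusp1 fell 3.88-fold, a log2 fold change of -1.96 ± 0.23 (SE, 5 animals in each group) with an adjusted p of 0.000174 and a 95% interval of -2.46 to -1.46. The spread was wider among aged animals: the highest aged value was 3.23-fold the lowest, against 1.40-fold among young animals, and the SDs of log2 intensity were 0.61 and 0.19. Of all probe sets, 1.05% had a larger SD among aged animals than this one. Aged replicate 1 was the closest of the aged animals to the young mean and aged replicate 5 the farthest. Without aged replicate 1 the log2 fold change of the brighter probe set of Dusp1 was -2.15, and without the replacement arrays, aged replicates 4 and 5, it was -1.62.

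The dimmer probe set of Dusp1 gave the same order of groups. It read 93.31, 46.74, 55.06, 55.05 and 33.28 in aged replicates 1 to 5, against 153.47, 129.91, 238.27, 192.93 and 154.45 in young replicates 1 to 5. The groups again did not overlap, and aged replicate 1 was again the highest aged animal and aged replicate 5 the lowest. Here the transcript fell 3.17-fold (log2 fold change -1.67 ± 0.23, adjusted p = 0.000447). The fall was smaller on the dimmer probe set by 0.29 on the log2 scale. An exact two-sided permutation test on the log2 ratio of the probe sets gave an unadjusted p of 0.0397 (n = 5 per group).

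Dusp2, a nuclear phosphatase known mainly from activated immune cells, went the other way without passing the test. It read 22.90, 36.22, 47.17, 28.44 and 28.54 in aged replicates 1 to 5, against 25.67, 21.73, 23.09, 24.94 and 20.81 in young replicates 1 to 5. Aged replicates 2 to 5 were above all young animals, and aged replicate 1 lay within the young range. The log2 fold change was 0.45 ± 0.16 (adjusted p = 0.0723). Without aged replicate 1 Dusp2 was called higher, with a log2 fold change of 0.57 and an adjusted p of 0.0119, and with array weights it was called higher too (0.51, adjusted p = 0.0340). The other 17 of 19 alternatives left it uncalled. Markers of T and natural killer cells were dim, with mean intensities of 7.38 to 66.8 for 12 genes, of which 1 rose (Prf1, 0.45 ± 0.14, adjusted p = 0.0433) and 11 did not pass. Their mean shift from young was 0.10 to 0.54 in aged replicates 2 to 5 and -0.05 in replicate 1, against -0.06 to 0.04 in young animals. Within aged replicates 2 to 5 the orders differed. Dusp2 was highest in replicate 3, where the shift was 0.10, and the shift was largest in replicate 5, where Dusp2 read 28.54. The part of these cells in the level of Dusp2 was not tested. Prf1 lost its call without any 1 of aged replicates 2, 4 and 5 and young replicates 1, 2, 3 and 5. Without aged replicate 1, 2 of the 12 rose.

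Dusp4 and Dusp5, nuclear phosphatases induced by ERK signalling, did not pass. Dusp5, which acts on ERK alone, read 31.20, 31.27, 30.79, 31.87 and 31.41 in aged replicates 1 to 5, against 47.02, 33.36, 30.18, 29.36 and 38.33 in young replicates 1 to 5. The aged animals lay inside the young range and close together, with an SD of log2 intensity of 0.018, against 0.28 in young animals. Of all probe sets, 0.0984% had a lower SD among the aged animals. The log2 fold change of Dusp5 was -0.17 ± 0.11 (adjusted p = 0.376, 95% interval -0.41 to 0.08). Dusp4, which acts on ERK and JNK, ranged from 9.47 to 12.09 in aged and from 10.43 to 12.95 in young animals. Both group means of Dusp4 were below the lowest array median (log2 intensity 3.75), so a level above background was not shown, and its log2 fold change was -0.04 ± 0.08 (adjusted p = 0.820).

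Among the cytoplasmic phosphatases of ERK, neither gene passed, and 1 animal decided the value of Dusp6. Dusp6, which ERK signalling induces and which returns ERK to its inactive state, read 260.73, 103.37, 95.49, 157.22 and 104.38 in aged replicates 1 to 5, against 175.90, 181.43, 147.95, 155.66 and 148.58 in young replicates 1 to 5. Aged replicate 1 was above every young animal, aged replicate 4 lay within the young range, and aged replicates 2, 3 and 5 were below all young animals. The log2 fold change over all animals was -0.27 ± 0.22 (adjusted p = 0.475, 95% interval -0.76 to 0.21). Without aged replicate 1, Dusp6 was called lower, with a log2 fold change of -0.52 ± 0.13 and an adjusted p of 0.0167. The SD of log2 intensity was 0.61 in aged and 0.14 in young animals, and 1.07% of all probe sets had a larger SD among aged animals. The leave-one-out fits of the other 9 arrays gave no call for Dusp6.

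Aged replicate 1 also had the highest mean of the macrophage markers, though not the highest value of each. It was the highest animal for Cd68, Aif1, Itgam, C1qa, C1qb and Tyrobp. It was not the highest for Cd163, Mrc1, Csf1r, Adgre1, Cd14 and C1qc. Of 12 such genes, 7 rose in aged muscle and 5 did not pass, with a median log2 fold change of 0.82, and their mean intensities ran from 23.8 to 446.5. Their mean shift from young was 0.35 to 0.74 in aged replicates 2 to 5 and reached 1.21 in replicate 1, against -0.67 to 0.35 in young animals. Aged replicate 1 was thus the highest both in Dusp6 and in the mean of these markers. The other aged animals did not follow that order. Aged replicates 2, 3 and 5, with marker shifts of 0.64, 0.74 and 0.35, had less Dusp6 than every young animal. Aged replicate 4, with a shift of 0.62, lay within the young range of Dusp6. The part of macrophages in the level of Dusp6 was not tested.

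Dusp7, the other cytoplasmic ERK phosphatase, read 23.90, 32.46, 30.64, 26.94 and 24.23 in aged replicates 1 to 5, against 39.52, 33.00, 28.46, 32.19 and 36.96 in young replicates 1 to 5. All aged animals were below the young mean and 3 were below every young animal, while the groups overlapped. The log2 fold change was -0.30 ± 0.11 (adjusted p = 0.0840). Dusp7 was called lower without aged replicate 2 (log2 fold change -0.36, adjusted p = 0.0488) and without young replicate 3 (-0.36, adjusted p = 0.0473).

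Of the phosphatases of JNK and p38, Dusp8 fell and Dusp10 and Dusp16 did not pass. Dusp8, known for its expression in brain, heart and skeletal muscle, read 62.94, 52.87, 58.82, 45.92 and 39.16 on its brighter probe set in aged replicates 1 to 5, against 100.41, 92.79, 115.54, 136.47 and 92.71 in young replicates 1 to 5. The groups did not overlap, aged replicate 1 was again the highest aged animal and aged replicate 5 the lowest. Dusp8 fell 2.08-fold (log2 fold change -1.05 ± 0.14, adjusted p = 0.000346, 95% interval -1.35 to -0.76). Without aged replicate 1 the log2 fold change was -1.13 for the brighter probe set of Dusp8, and without the replacement arrays it was -0.87.

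The dimmer probe set of Dusp8 did not pass. It read 18.72, 21.48, 16.46, 19.01 and 14.36 in aged replicates 1 to 5, against 18.68, 20.54, 25.21, 25.00 and 18.43 in young replicates 1 to 5. The groups overlapped, and the log2 fold change was -0.26 ± 0.12 (adjusted p = 0.184, 95% interval -0.52 to 0.003). The 2 probe sets of Dusp8 disagreed in size. The log2 ratio of the brighter to the dimmer was lower by 0.79 in aged muscle, with 5 of 5 aged animals below every young one. The exact two-sided permutation test gave an unadjusted p of 0.00794, the smallest this design allows (n = 5 per group). The dimmer probe set lay near the array medians of 13.46 to 13.99, and the part of its low level in the smaller fall was not tested. The mean over both probe sets still left Dusp8 called lower. Which transcripts of Dusp8 each probe set detects was not given in the sources used here.

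Dusp10, a phosphatase of JNK and p38 whose loss in mice speeds muscle regeneration, read 94.51, 106.46, 116.42, 124.68 and 99.81 in aged replicates 1 to 5, against 90.17, 97.12, 114.05, 109.78 and 89.38 in young replicates 1 to 5. The groups overlapped widely, with a log2 fold change of 0.11 ± 0.10 (adjusted p = 0.490, 95% interval -0.09 to 0.32). Dusp16, which acts mainly on JNK, ranged on its brighter probe set from 26.46 to 29.66 in aged and from 27.71 to 43.40 in young animals. Young replicate 3 was its highest animal, and the aged animals lay close together, with an SD of log2 intensity of 0.086, against 0.26 in young animals. Its log2 fold change was -0.22 ± 0.11 (adjusted p = 0.221). The dimmer probe set of Dusp16 ranged from 6.04 to 7.24 in aged and from 5.55 to 7.91 in young animals, below the lowest array median, with a log2 fold change of -0.03 ± 0.09 (adjusted p = 0.895).

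**Figure D2:**
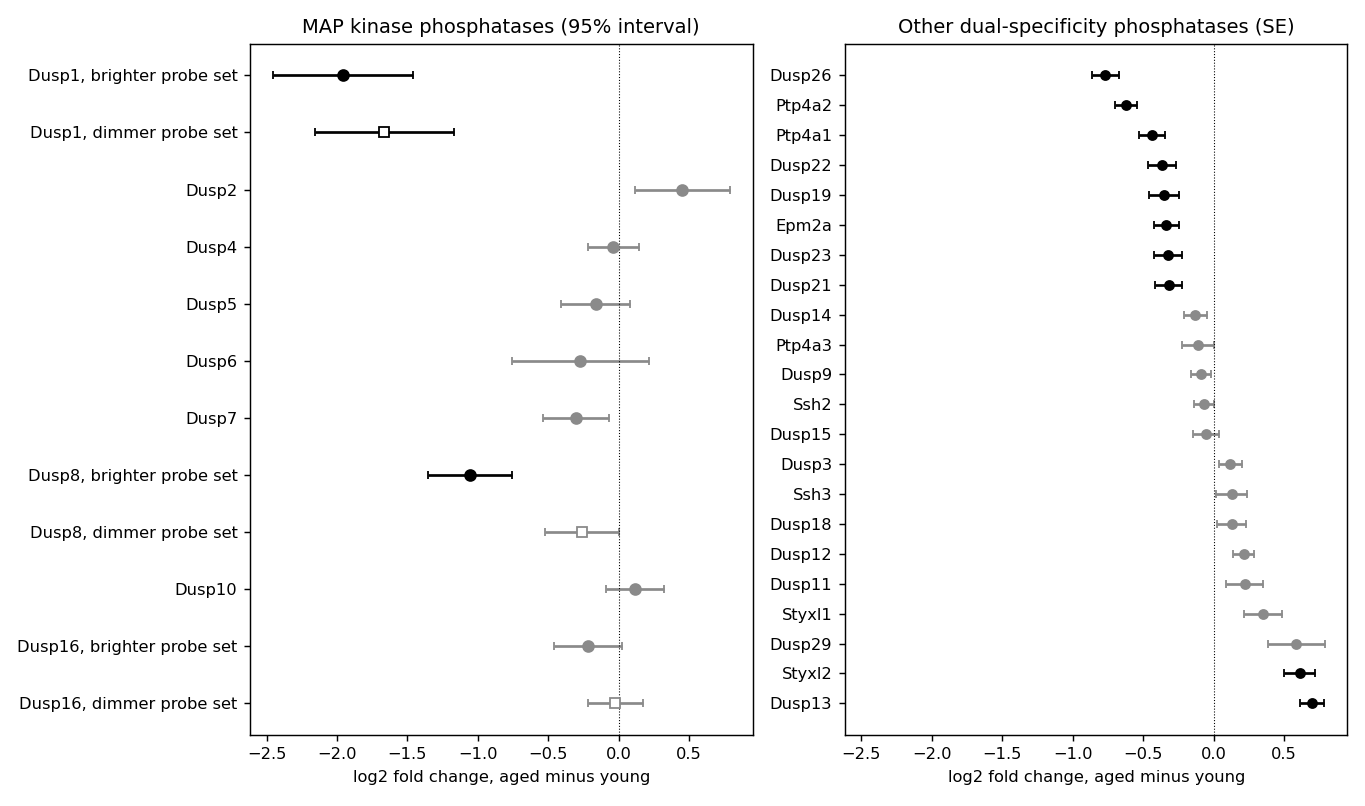
Log2 fold change, aged minus young, of the 12 probe sets of the phosphatases (left, bars are 95% intervals, open squares are dimmer probe sets) and of 22 other dual-specificity phosphatases by brightest probe set (right, bars are SE), each from 5 aged and 5 young arrays. Black marks a call at an adjusted p under 0.05: Dusp1 at -1.96 and Dusp8 at -1.05 lie beyond every gene on the right, where the lowest is Dusp26 at -0.77.

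In each animal the log2 ratio of Dusp1 to each other member was taken, as a description with no test, since Dusp1 was chosen after its values were seen. The mean ratio was lower in aged muscle against all 8 other genes, from -0.90 against Dusp8 to -2.41 against Dusp2, with Dusp6 at -1.68 and Dusp10 at -2.07 between them. In each of these 8 comparisons 5 of 5 aged animals were below every young one. All 8 hold the same Dusp1 values, whose groups were already apart, so they are not separate observations. The log2 ratio of Dusp1 to Dusp8 was 3.40 ± 0.36 in aged and 4.30 ± 0.18 in young animals (SD, n = 5 each). A ratio within an array shows unequal change and leaves the absolute change of either gene unknown.

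Aged replicate 1 was the aged animal closest to the young mean in 4 of 9 genes: Dusp1, Dusp2, Dusp8 and Dusp16. The SD of log2 intensity was larger among aged than young animals in 6 of the 9 genes, where 57.54% of all probe sets had the larger SD among aged animals, so this count lies near the background. The members at the extremes were Dusp1 and Dusp6 with a wide aged spread and Dusp5 and Dusp16 with a narrow one.

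The genes most like Dusp1 over the 10 arrays, among 17261 candidates, were Nr4a1 (Pearson's r 0.991), Tp53inp2 (0.986), Pfkm (0.985), Gpi (0.983) and Rxrg (0.983). Nr4a1 is a nuclear receptor that muscle activity induces, Tp53inp2 takes part in autophagy, Pfkm and Gpi are glycolytic enzymes, and Rxrg is a retinoid receptor of muscle. All 5 were lower in aged muscle, from -0.87 for Tp53inp2 to -2.63 for Nr4a1 (log2 fold change), and these correlations span 2 groups that differ. With each group mean taken out, the closest were Pdxkl1 (0.976), Tspan2 (0.966), Nr4a1 (0.940), Slc9a8 (0.928) and Rapgef5 (0.924), so Nr4a1 was among the closest by both measures. For Dusp2, the member with the largest positive log2 fold change, the closest were Fam13a (0.953), Nox4 (0.940), B3galt2 (0.940), Wdr20 (0.938) and Camk2d (0.937), and with group means taken out Ripk1 (0.943), Mical1 (0.942), Fam13a (0.940), Serpinb6a (0.928) and Aktip (0.923). These are descriptions over 10 arrays that share their processing, picked as the highest of many.

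**Figure D3:**
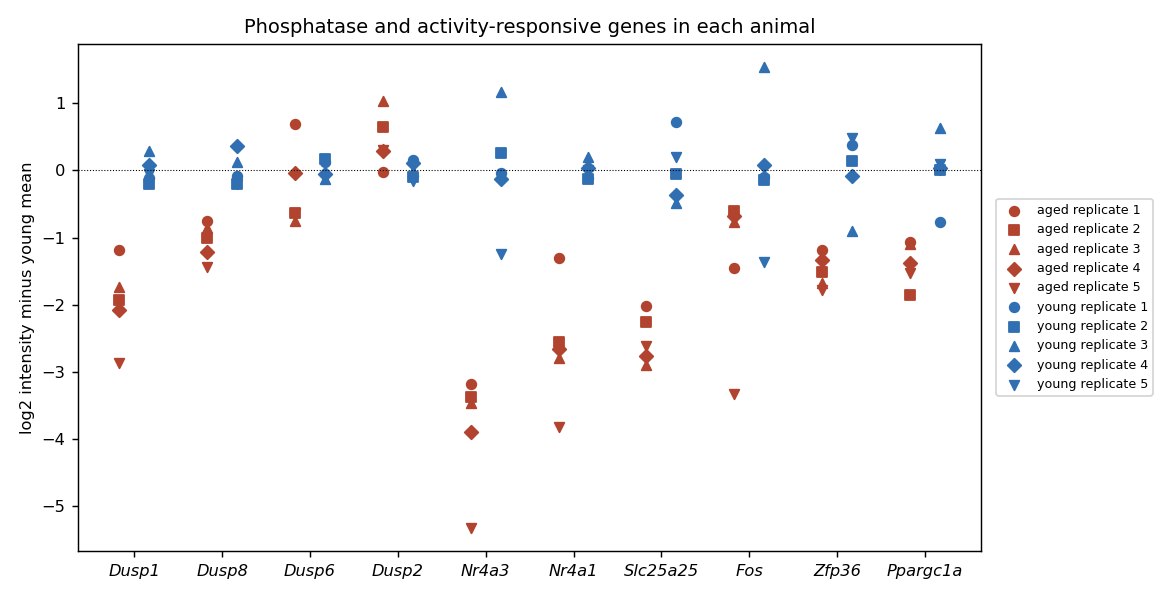
Log2 intensity minus the young mean for 4 phosphatase genes and 6 genes known to respond to activity, aged animals in red to the left and young animals in blue to the right of each tick, with 1 symbol per replicate. The 6 genes shown all had a lower aged mean, and genes of the same lists that rose, such as Sik1, Myc and Junb, are not shown. For Dusp1, Dusp8, Nr4a1 and Nr4a3 aged replicate 1 is the aged animal nearest 0 and aged replicate 5 the farthest, whereas in Dusp6 aged replicate 1 lies above 0.

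Nr4a1, the gene nearest to Dusp1, read 611.48, 257.52, 217.94, 238.94 and 107.81 in aged replicates 1 to 5, against 1399.43, 1384.67, 1747.60, 1548.87 and 1523.60 in young replicates 1 to 5, and fell 6.18-fold (log2 fold change -2.63 ± 0.32, adjusted p = 0.000214). As with Dusp1, replicate 1 was the highest aged animal and replicate 5 the lowest. Its relative Nr4a3 fell 14.4-fold on its brightest probe set (-3.84 ± 0.43, adjusted p = 0.000125), while its other 2 probe sets had log2 fold changes of -1.80 and -0.62, of which 1 passed.

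Of 29 measured immediate-early genes, 4 rose, 6 fell and 19 did not pass, with a median log2 fold change of -0.06. The share called higher was 13.79%, against 13.8% of all genes, and the share called lower was 20.69%, against 8.7% of all genes. Their mean shift from the young mean was -0.61 to -0.02 in aged animals, with 5 of 5 below 0, against -0.27 to 0.24 in young animals. Those that fell the most were Nr4a3 and Nr4a1, and those that rose the most were Myc (1.58 ± 0.14, adjusted p = 3.62e-05), a growth regulator, and Junb (1.07 ± 0.16, adjusted p = 0.000790), a subunit of AP-1. Fos, another AP-1 subunit, read 110.44, 200.36, 178.67, 189.03 and 30.14 in aged replicates 1 to 5, against 282.10, 273.96, 880.81, 320.57 and 117.86 in young replicates 1 to 5. The Fos groups overlapped, since young replicate 5 was below 3 aged animals, and Fos did not pass (-1.37 ± 0.54, adjusted p = 0.116). The count that rose was 2 without any 1 of aged replicates 2 and 5 and young replicates 2 and 5. It was also 2 without the replacement arrays.

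Genes listed for responses to CREB and calcium were lower in larger number. This list, like the others, was chosen with earlier results of these data known, so its counts are not independent of them. Of 18 measured genes, 1 rose, 9 fell and 8 did not pass, with a median log2 fold change of -0.50, against -0.01 over all genes, of which 8.7% were called lower. Some of the 18 are shared with other lists, Nr4a1, Nr4a2 and Nr4a3 with the immediate-early genes and Per1 with the glucocorticoid-responsive genes. The list also holds Creb1 itself, which is among those that fell (-0.32 ± 0.07, adjusted p = 0.0102). It holds the CREB coactivator genes Crtc1, Crtc2 and Crtc3 too, which did not pass. Slc25a25, a mitochondrial carrier for ATP-magnesium, read 195.35, 166.40, 106.57, 116.63 and 130.01 in aged replicates 1 to 5, against 1303.95, 761.42, 565.35, 615.36 and 910.25 in young replicates 1 to 5. Its groups were far apart. The gene that rose was Sik1, a kinase that restrains CREB coactivators (2.01-fold, log2 fold change 1.00 ± 0.19, adjusted p = 0.00319). The mean shift of the list was -1.24 to -0.54 in aged animals, with replicate 1 the least shifted and replicate 5 the most, against -0.13 to 0.21 in young animals.

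Genes listed as responsive to glucocorticoids, which induce Dusp1, were lower in part. Of 19 measured genes, 3 rose, 10 fell and 6 did not pass, with a median log2 fold change of -0.40. The list also holds Nr3c1, the gene of the glucocorticoid receptor itself, which is among those that fell (-0.22 ± 0.07, adjusted p = 0.0491). Fkbp5, a cochaperone of the glucocorticoid receptor, fell 2.85-fold (-1.51 ± 0.26, adjusted p = 0.00163) and so did Ddit4, which restrains mTORC1, by 2.72-fold (-1.44 ± 0.29, adjusted p = 0.00447). On the other side, the metallothionein gene Mt1 rose 11.2-fold (3.48 ± 0.26, adjusted p = 1.27e-05) and the cell cycle inhibitor gene Cdkn1a 8.18-fold (3.03 ± 0.32, adjusted p = 8.07e-05). The mean shift of the list was -0.13 to 0.06 in aged and -0.33 to 0.17 in young animals, so the groups overlapped. Without the replacement arrays, aged replicates 4 and 5, 4 of these genes were called lower.

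**Figure D4:**
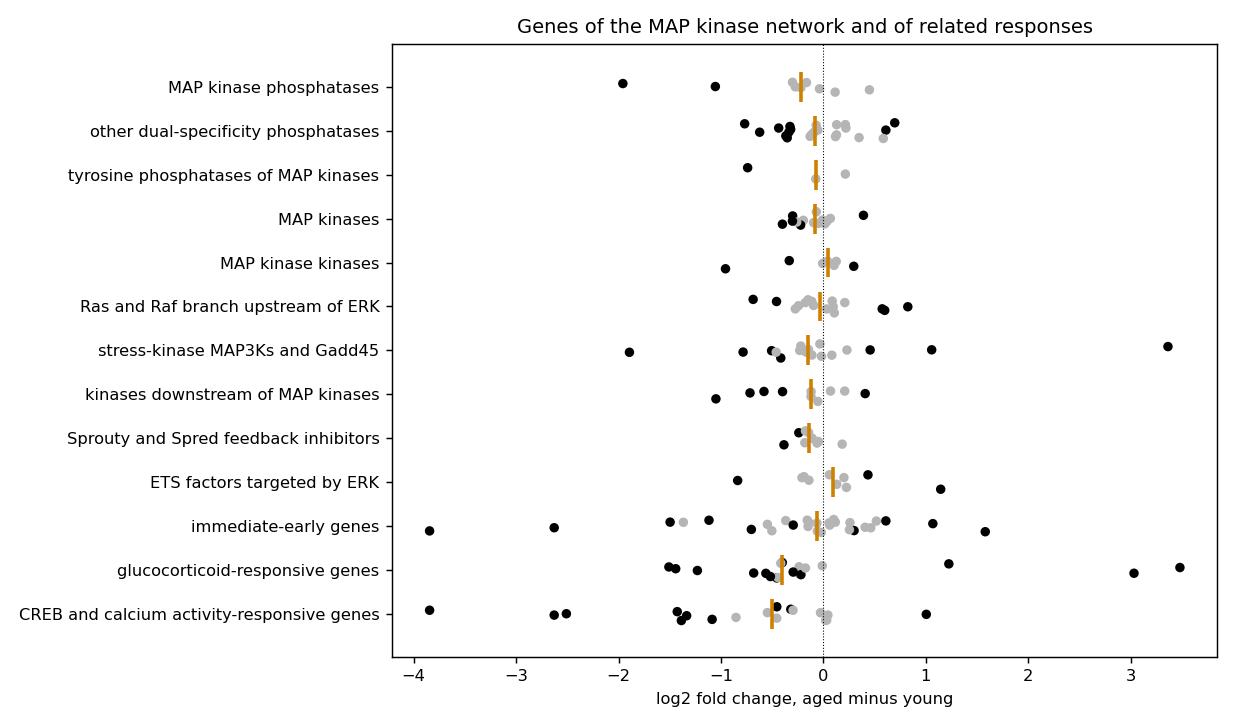
Log2 fold change, aged minus young, of each measured gene (brightest probe set, 5 aged and 5 young arrays) in the phosphatase group and 12 lists of related genes. Black points passed at an adjusted p under 0.05, grey points did not, and the orange bar is the median, which is -0.22 for the phosphatases, -0.40 for glucocorticoid-responsive genes and -0.50 for CREB and calcium genes.

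The other dual-specificity phosphatases, most of which lack the kinase-binding domain of the MAP kinase phosphatases, also split. Of 22 measured genes, 2 rose, 8 fell and 12 did not pass, with a median log2 fold change of -0.08. Dusp26, a phosphatase of nerve and muscle, fell 1.70-fold (-0.77 ± 0.10, adjusted p = 0.000241) and Ptp4a2, a phosphatase of regenerating liver, fell 1.54-fold (-0.62 ± 0.08, adjusted p = 0.000301). Dusp13, now named Dusp13b in RefSeq, rose 1.62-fold (0.70 ± 0.08, adjusted p = 0.000215). Styxl2, deposited as Dusp27, rose 1.53-fold (0.61 ± 0.11, adjusted p = 0.00246). It encodes a phosphatase-like protein of the sarcomere, and its other probe set did not pass (0.24). Dusp9, a cytoplasmic ERK phosphatase that belongs with Dusp6 and Dusp7 by structure but was no member here, did not pass (-0.09 ± 0.07, adjusted p = 0.457). The count that fell was 3 to 5 without any 1 of aged replicates 2 to 5 and young replicates 1, 2, 4 and 5, and the count that rose was 5 without aged replicate 4. Without the replacement arrays 3 genes of this list fell and 2 rose. Of the 3 tyrosine phosphatases that act on MAP kinases, Ptprr fell (-0.74 ± 0.21, adjusted p = 0.0338) and the others did not pass. Ptprr lost its call without any 1 of aged replicates 2 to 5 or young replicates 2, 4 and 5 (adjusted p 0.0612 to 0.0819), and its other probe set did not pass (-0.17).

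Most genes of the substrates did not pass. Of 14 MAP kinase genes, 1 rose, 4 fell and 9 did not pass, with a median log2 fold change of -0.08. Mapk14, the alpha form of p38, fell 1.32-fold (-0.40 ± 0.10, adjusted p = 0.0136), also on its other probe set (-0.46), and Mapk3, which encodes an ERK, rose 1.31-fold (0.39 ± 0.09, adjusted p = 0.00989). Nlk, a distant relative, fell (-0.30 ± 0.09, adjusted p = 0.0373) but its other 3 probe sets had log2 fold changes of 0.09 to 0.11. Nlk lost its call without any 1 of aged replicates 3 to 5 or of the 5 young replicates (adjusted p 0.0514 to 0.0902), and 1 or 2 MAP kinase genes fell without any 1 of the arrays other than aged replicate 1. Without the replacement arrays 1 MAP kinase gene fell and 0 rose.

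Among the kinases that activate them, calls ran both ways. Of 7 MAP kinase kinase genes, 1 rose, 2 fell and 4 did not pass. Map2k6, an activator of p38, read 407.88, 245.66, 341.60, 317.51 and 192.14 in aged replicates 1 to 5, against 541.41, 589.38, 580.07, 507.19 and 610.59 in young replicates 1 to 5. The groups did not overlap, and Map2k6 fell 1.94-fold (-0.96 ± 0.16, adjusted p = 0.00166). Map2k4, an activator of JNK and p38, fell 1.26-fold (-0.33 ± 0.08, adjusted p = 0.0105), while Map2k1, an activator of ERK, rose 1.23-fold (0.30 ± 0.07, adjusted p = 0.0162). Without the replacement arrays, aged replicates 4 and 5, the calls of Map2k4 (adjusted p = 0.0759), Map2k1 (0.0731) and Mapk3 (0.0546) were lost.

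Of 16 genes of the Ras and Raf branch, 3 rose, 2 fell and 11 did not pass. Rras2, a Ras-related GTPase, rose 1.77-fold (adjusted p = 0.0171) and Ksr1, a scaffold of the ERK cascade, 1.51-fold (adjusted p = 0.0108). Sos2, an exchange factor for Ras, fell 1.61-fold (adjusted p = 0.00252) and Ptpn11, a tyrosine phosphatase that promotes Ras signalling, 1.37-fold (adjusted p = 0.00298). Without aged replicate 1, 4 of them fell. Of 17 stress-kinase MAP3K and Gadd45 genes, 3 rose, 4 fell and 10 did not pass. Gadd45a and Gadd45g, activators of the kinase Map3k4, moved in opposite directions. Gadd45a read 2675.65, 7361.19, 4539.28, 2134.65 and 4351.67 in aged replicates 1 to 5, against 602.04, 246.21, 313.63, 409.38 and 376.73 in young replicates 1 to 5, and rose 10.3-fold (3.36 ± 0.30, adjusted p = 3.53e-05). Gadd45g read 317.67, 228.61, 211.18, 403.53 and 182.63 in aged replicates 1 to 5, against 1221.48, 831.09, 524.96, 930.43 and 1614.42 in young replicates 1 to 5, and fell 3.72-fold (-1.89 ± 0.27, adjusted p = 0.000613). Map3k7, a kinase of the cytokine branch, rose 2.08-fold (1.06 ± 0.18, adjusted p = 0.00143), and Tab2, its adaptor, fell 1.72-fold (-0.78 ± 0.11, adjusted p = 0.000633).

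Downstream, 4 of 10 kinase genes fell, 1 rose and 5 did not pass. Rps6ka2, a kinase that ERK activates, fell 2.07-fold (-1.05 ± 0.15, adjusted p = 0.000536) and Mapkapk2, the kinase through which p38 stabilises many transcripts, fell 1.64-fold (-0.72 ± 0.09, adjusted p = 0.000203). Rps6ka3 rose 1.33-fold (adjusted p = 0.0248) and lost its call without any 1 of aged replicates 2, 3 and 5 and young replicate 5 (adjusted p 0.0505 to 0.0648). Of 9 genes listed as feedback inhibitors of ERK signalling like Dusp6 (Sprouty and Spred genes, Il17rd and Errfi1), 2 fell and 7 did not pass. Spry1 fell 1.31-fold (-0.38 ± 0.10, adjusted p = 0.0217), and its adjusted p was 0.0514 without young replicate 1 and 0.0563 without young replicate 5. Il17rd fell 1.18-fold (adjusted p = 0.0373) at a level below the lowest array median, and lost its call without any 1 of aged replicates 3 to 5 and young replicates 2 to 4 (adjusted p 0.0591 to 0.0917). The count of this list that fell was 1 without any 1 of aged replicates 3 to 5 or of the 5 young replicates. It was 0 without the replacement arrays. Of 10 ETS factors that ERK targets, 2 rose, 1 fell and 7 did not pass. Ets2 rose 2.21-fold (1.15 ± 0.15, adjusted p = 0.000342), also on its other probe set (0.79), and Etv4 fell 1.79-fold (-0.84 ± 0.15, adjusted p = 0.00246). Elk4 rose 1.35-fold (adjusted p = 0.0205), with log2 fold changes of -0.13 to 0.01 on its other 3 probe sets, and lost its call without aged replicate 2 (adjusted p = 0.0533) or young replicate 3 (0.0537), leaving 1 ETS gene that rose.

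Markers of the muscle fibre, the labelled tissue, were bright, with mean intensities of 206.4 to 24260 for 12 genes. Of these, 1 rose (Mb, myoglobin), 3 fell and 8 did not pass, and Mb lost its call without any 1 of aged replicates 2 to 5 and young replicates 1, 4 and 5. Their mean shift was -0.20 to -0.05 in aged and -0.05 to 0.05 in young animals. Markers of satellite cells and myoblasts shifted by 0.60 to 1.39 in aged and by -0.17 to 0.28 in young animals, with aged replicate 1 again nearest the young animals. Of these 6 genes, 3 were higher, namely Myf5, Myod1 and Myog (log2 fold changes 2.09, 1.82 and 2.61). The others did not pass, namely Pax7, Cdh15 and Vcam1 (-0.16, -0.39 and 0.62). Smooth muscle and pericyte markers shifted by -0.54 to -0.07 in aged and by -0.05 to 0.11 in young animals, with 3 of 6 genes lower. For endothelial markers the shift was -0.43 to 0.27 in aged and -0.09 to 0.21 in young animals, for fibroblast markers -0.15 to 0.49 and -0.31 to 0.32, and for fat cell markers 0.22 to 1.12 and -0.40 to 0.19. Schwann cell markers shifted by -0.24 to 0.72 in aged and by -0.20 to 0.45 in young animals. Of the 6 B cell markers, 5 were below the lowest array median. The satellite cell, smooth muscle and fat cell shifts did not overlap between aged and young animals, as Dusp1 and Dusp8 did not, while the other shifts overlapped. The part of any of these cells in the values of the phosphatases was not tested.

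**Figure D5:**
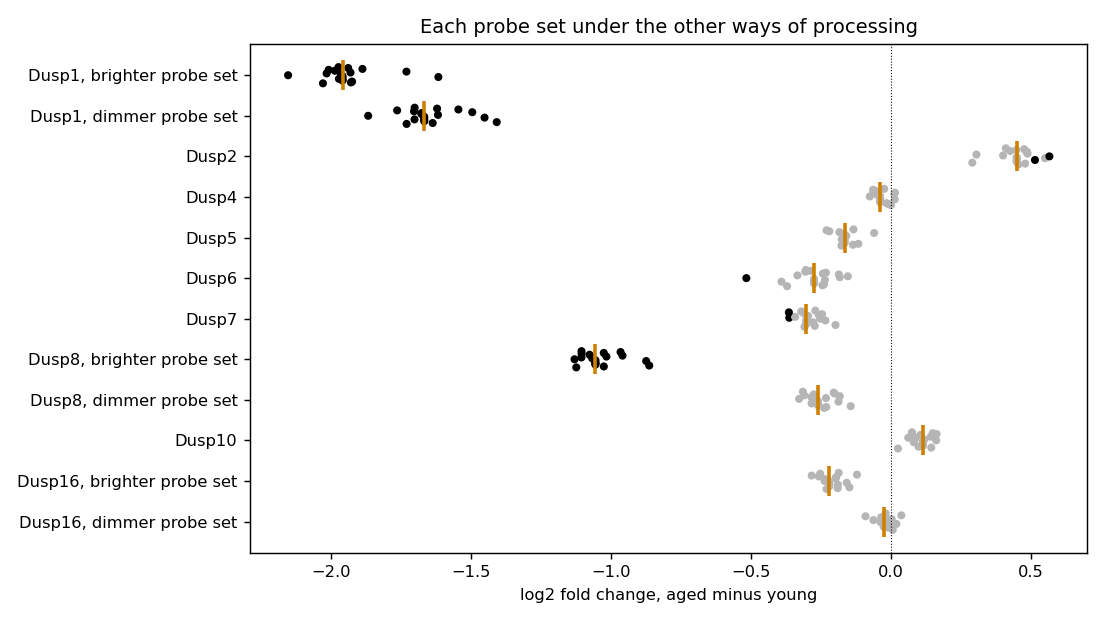
Log2 fold change, aged minus young, of each of the 12 probe sets under the other ways of processing and with single arrays left out (points, black where the adjusted p was under 0.05) and as reported (orange bar). Both probe sets of Dusp1 and the brighter one of Dusp8 are black throughout, Dusp2 and Dusp7 have 2 black points each, and Dusp6 has 1, the fit without aged replicate 1.

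The calls of Dusp1 and Dusp8 held in all 19 alternatives run on their brighter probe sets. The log2 fold change of Dusp1 lay between -2.15 and -1.62 with an adjusted p of at most 0.00174, and that of Dusp8 between -1.13 and -0.86 with an adjusted p of at most 0.00223.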

How the data were processed

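RNA from 5 aged and 5 young muscles, 1 array per animal, was hybridised as biotin-labelled RNA, per the labels' protocols. Each deposited value is the intensity of a probe set, not in logs, made by the authors with RMA per the submitters' processing notes, which name no version or settings. The deposited probe set values did not share one distribution across arrays: their medians were 13.46 to 13.74 in aged and 13.79 to 13.99 in young animals. These medians do not show which normalization was applied before summarizing. Neither the array design and probe annotation nor a genome build is given in the sources used here, and no detection measure came with the intensities. The number of arrays limits the precision.

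A deposited table held 43686 probe sets with symbols, and a second held the same values (within 0.005) for 43685 with replicate numbers in its column names. Columns of the first were tied to age groups by their names and to replicates by these equal values. Of 19091 symbols, 13892 were current in RefSeq, 3266 were updated, 1910 were kept and 23 were unusable dates. Log2 intensities, without pseudocount or filter, were fitted in R 4.3.3 by limma 3.58.1, using lmFit, two-sided eBayes tests and age group as the only term. Errors after ± beside a log2 fold change are limma's SE, and limma also gave each gene's adjusted p. Ratios of probe sets within an array are descriptions. The pairs of probe sets of Dusp1 and of Dusp8, the 2 genes called lower, were also tested by exact permutation, and that of Dusp16 was not. The p values of these pairs are unadjusted and are not free of that choice. The fit was tested on simulated data with 50 probe sets changed at each size. It recovered 84% at 1.5-fold, 90% at 2-fold and 100% at 3-fold, while 18 unchanged probe sets were also called. The simulation used independent normal noise and left most probe sets unchanged, whereas 6536 were called in the data. These rates therefore need not hold for the data. The animals were separate and nothing in the sources used here ties same-numbered animals together.

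The members and the gene lists were chosen with earlier results of these data known. Named genes were all members, in each list of related genes the 2 called genes with the largest rises and falls, any listed gene a result turned on, and the 5 genes most like the member with the largest fall and the one with the largest rise. Slc25a25 was named after its values were seen, as were the genes Fos, Dusp9, Mb and Prf1. Alternatives were quantile normalization, median centring, a pseudocount of 16, a filter on dim probe sets, other moderation, array weights, the second table, leaving out the replacement arrays or each array in turn, a replicate block, and averaging a gene's probe sets. The planned comparison of protein sequences was not made.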

Additional observations from a re-analysis of the deposited data

Results flagged for a closer look

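Among the 24 groups of 5 animals (12 probe sets, aged and young), 0 held an animal whose gap to the rest, as a share of the group's range of log2 intensity, exceeded Dixon's critical value of 0.71.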

How the results depend on the processing

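Over 19 alternatives the 12 probe sets gave 226 values with a direction, of which 211 kept their direction and their side of the threshold, 5 gained a call and 10 turned in sign, all of the last for Dusp4 and the dimmer probe set of Dusp16, neither of them called in any fit. Dusp4 (-0.04 as reported) was at 0.0004 with quantile normalization, 0.0139 without the replacement arrays, and -0.0752 to 0.0147 leaving out single arrays. The dimmer probe set of Dusp16 (-0.03) was at 0.0072 with quantile normalization, 0.005 with median centring, 0.0017 with array weights, 0.0199 without the replacement arrays, and -0.0902 to 0.0376 leaving out single arrays. With array weights 1 member gene and 1 member probe set were called higher (Dusp2), and leaving out single arrays gave 0 to 1 of each. The cause was not tested.

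Over all probe sets 6536 were called, 5118 to 7628 leaving out single arrays and 4520 without the replacement arrays. Arrays with the same replicate number did not deviate together (r -0.118 to 0.0266), so the numbers do not pair animals. With the replicate block 5551 probe sets were called, and 2 member genes were lower and 0 higher by limma, as without it. Fos passed with the block (limma's adjusted p = 0.00736, against 0.116 without it), and 7 immediate-early genes were called lower, against 6. Of 45 genes that are no members and whose calls were followed (those named from the pathway lists, the 5 most like Dusp1 over all arrays, Slc25a25, Fos, Dusp9, Mb and Prf1), 12 lost or gained a call under some alternative. Without the replacement arrays Elk4, Il17rd, Map2k1, Map2k4, Mapk3, Mb, Nlk, Prf1, Ptprr and Spry1 lost their calls. The dim probe sets, 2 of them with group means below the lowest array median, limit what Dusp4 and Dusp16 can show.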
